A study of Mus musculus with 30 samples.

Results

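The genes described here are the collagens and a set of genes typical of matrix-producing fibroblasts, read in mouse epiblast stem cells (EpiSCs) that were grown on feeder cells. The set held every gene with a collagen chain symbol except Col4a1 and Col4a2, together with Thy1, Postn, Lum, Dcn, Fbn1, Fbn2, Prrx1, Lox, S100a4, Twist1, Igfbp5 and Adamts12. It came to 54 of the 29555 genes in the gene tables, 42 of them collagens, and all 54 were found. A gene is named below if its mean reached 1 CPM, the usual unit of counts scaled to the size of each library, in at least 1 of the 5 RNA groups, which 45 members did.

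The study compared EpiSCs of several mouse strains with the definitive endoderm (DE) made from them. EpiSCs were kept on feeders in Fgf2, ActivinA and the Wnt inhibitor NVP-TNKS656, at passage 5 to 10. For DE, cells received CHIR99201 and ActivinA for 16 h and then ActivinA and LDN193189 for 24 h, while the labels also give 46 h in all. DE cells were selected on magnetic beads for surface CXCR4. EpiSCs were lifted with collagenase, which the labels say was meant to limit carry-over of feeders, and then accutase, whereas DE cells were lifted with accutase, so the lifting and the sort cannot be told apart from the cell state. RNA libraries covered C57BL/6 (B6) EpiSCs (n = 5, replicates 1, 2, 4, 44 and 51), B6 DE (n = 4, replicates 2, 4, 44 and 51), PWK/PhJ (PWK) EpiSCs (n = 3, BioRep698, BioRep695 and a column whose name gives the group but no sample, called unnumbered below), B6.129 F1 hybrid (B6129F1) EpiSCs (n = 3, replicates 4 and 9 and a column likewise without a sample name) and DBA/2J (DBA) EpiSCs (n = 1). Libraries for the assay of transposase-accessible chromatin (ATAC-seq) covered B6 EpiSCs (n = 4), B6 DE (n = 4), PWK EpiSCs (n = 2) and DBA EpiSCs (n = 1). The labels do not say that the numbered samples are separate cultures or animals, so p-values measure the spread between these samples.

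Collagens are trimeric matrix proteins, and the gene families differ in what the trimers build. Types I, III and V are the fibrils of connective tissue, type VI makes beaded filaments around cells, the further type IV chains make basement membrane networks, and types XIII, XVII, XXIII and XXV are collagens that span the cell membrane. Embryonic fibroblasts, the usual feeder cells, make large amounts of types I, III, V and VI, along with the small proteoglycans decorin and lumican, fibrillin, periostin and the crosslinking enzyme lysyl oxidase. Epiblast cells make their own basement membrane, to which the type IV chains Col4a1 and Col4a2 left out of this set belong.

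RNA totals ranged from 22829536 to 66563933 counts, with DE replicates 4 and 51 the deepest. Pou5f1, the core pluripotency factor, lay at 1007 to 1371 CPM in B6 EpiSCs and at 2.46 to 35.2 CPM in DE. Sox17, an endoderm factor, lay at 0.65 to 9.76 and 1138 to 1366 CPM. The epiblast stem cell markers fixed as a list were mixed: of 10, Pou5f1 among them, 6 were lower and 3 higher in DE. Their sum did not separate the states, at 3015 to 4617 CPM in B6 EpiSCs and 3301 to 4326 CPM in DE. Of 10 definitive endoderm markers 8 were higher in DE and 0 lower, a list that includes Cxcr4, for whose surface protein DE cells were selected. Blood and endothelial markers summed to at most 2.3 CPM in any library of either B6 group. In bulk RNA, fewer cells of a type and less RNA per cell cannot be told apart.

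Col1a1, which encodes the alpha 1 chain of type I collagen, varied widely within B6 EpiSCs. It stood at 754, 289, 300.4, 98.6 and 8.21 CPM in B6 EpiSC replicates 51, 44, 2, 4 and 1. The PWK libraries held 564, 724 and 819 CPM, the DBA library 414, and the B6129F1 libraries 47.9, 32.5 and 30.5. The DE libraries held 34.9, 5.504, 12.04 and 17.8 CPM in replicates 2, 44, 4 and 51. All PWK libraries were high, all B6129F1 libraries low, and the B6 EpiSC libraries spanned both, with replicate 1 below 3 of the 4 DE libraries.

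**Figure D1:**
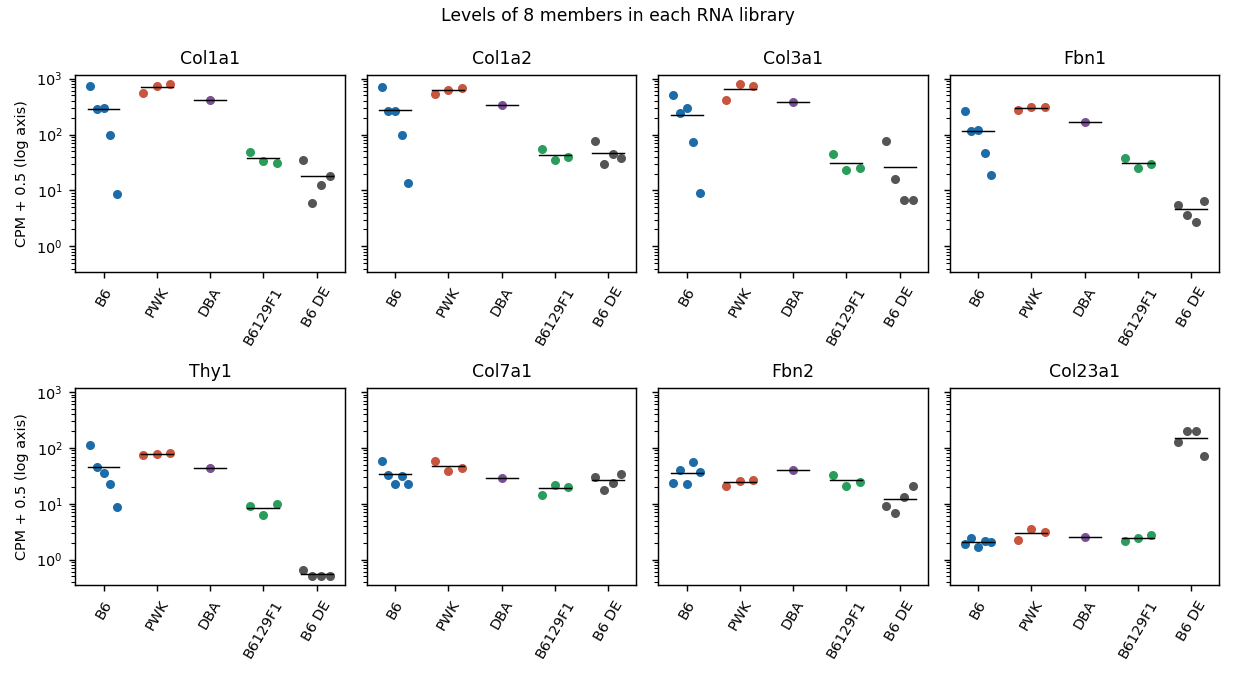
CPM + 0.5 on a log axis for 8 members in every RNA library, with 1 point per library and a black line at the group mean of the plotted values. Col1a1, Col1a2, Col3a1, Fbn1 and Thy1 spread widely among B6 EpiSCs, Col7a1 and Fbn2 spread less, and Col23a1 is high only in the 4 DE libraries.

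To separate genes that go with Col1a1 from those that do not, each member was set against Col1a1 over the 12 EpiSC libraries on the log2(CPM + 0.5) scale. A member was said to follow Col1a1 at a Pearson r of at least 0.8. Of the 43 members with a mean of at least 0.5 CPM over these libraries, 30 followed, counting Col1a1 itself, and 13 did not. Among all 13855 genes with such a mean, 7.79% reached the same r. The 12 libraries share strains and depth range, so r is given as a description only. Spearman's rho of the other 29 followers ran from 0.81 to 0.99. Without the 2 libraries farthest from the Col1a1 median the rule kept 28 of the 30, losing Col10a1, whose mean then fell under 0.5 CPM, and Col15a1. With each library expressed as its deviation from its strain mean (11 libraries, DBA left out), 28 of the 30 again reached 0.8, with Col10a1 at 0.78 and Col14a1 at 0.73. Just inside the limit stood Col15a1 (r = 0.81) and just outside it Col7a1 (r = 0.76).

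The fibrillar collagens supplied the closest matches. Of 11 such chains 9 followed. Col1a2, the partner chain of Col1a1 in type I collagen, had r = 0.998, Col3a1, the chain of type III collagen, 0.995, and Col5a2 and Col5a3, chains of the type V fibrils that seed type I fibrils, 0.992 and 0.990. Col1a2 lay at 716, 259, 268, 98.95 and 13.3 CPM in B6 EpiSC replicates 51, 44, 2, 4 and 1. In PWK it lay at 527, 635 and 691 CPM, in DBA at 332 and in B6129F1 at 53.8, 34.0 and 39.9. Its order of libraries was close to that of Col1a1, and both had their lowest EpiSC level in B6 replicate 1. Col3a1 ranged from 8.33 CPM in B6 replicate 1 to 799 CPM in PWK BioRep695, a 95.9-fold span. Col5a1 followed with r = 0.97 but spanned only 8.03-fold, from 57.4 to 461 CPM. Col11a1 (r = 0.97, from 2.06 to 16.4 CPM), Col24a1 (r = 0.95, from 0.039 to 2.37 CPM) and Col27a1 (r = 0.88, from 2.18 to 8.45 CPM) are further fibrillar chains and followed at lower levels.

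The 3 main chains of type VI collagen moved together. Col6a1 had r = 0.984, Col6a2 0.990 and Col6a3 0.993. Col6a3 stood at 330, 243, 211, 67.3 and 6.89 CPM in B6 EpiSC replicates 51, 44, 2, 4 and 1, and at 342, 542 and 539 CPM in the PWK libraries. The type VI chain Col6a5 did not follow (r = 0.50, from 0.24 to 2.48 CPM), and Col6a4 and Col6a6 did not reach the mean of 0.5 CPM. Of the fibril-associated collagens, which sit on fibril surfaces, Col16a1 (r = 0.99), Col12a1 (0.92) and Col14a1 (0.86) followed, Col22a1 and Col9a3 did not, and 4 were below the mean of 0.5 CPM.

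Among the matrix genes outside the collagens 10 of 12 followed. The proteoglycan genes Dcn (r = 0.98) and Lum (r = 0.97) ranged from 1.91 to 119 CPM and from 0.19 to 27.2 CPM, and the 139.7-fold range of Lum was the widest of the 30. Fbn1, the main fibrillin of elastic microfibrils, had r = 0.98 and ranged from 18.3 to 312 CPM. Postn, a matricellular protein of fibroblasts, and Lox, which crosslinks collagen, had r of 0.96 and 0.92. The surface protein Thy1, often used to tell fibroblasts from pluripotent cells, had r = 0.95 and stood at 113, 45.3, 34.7, 22.1 and 8.17 CPM in B6 EpiSC replicates 51, 44, 2, 4 and 1. Prrx1, a homeobox factor of limb and craniofacial mesenchyme, had r = 0.96, and S100a4, a calcium-binding protein of fibroblasts, 0.92. Igfbp5, which binds insulin-like growth factors, and the protease Adamts12 had r of 0.89 and 0.91. B6 replicate 1 was the lowest EpiSC library for 22 of the 30 followers, and a B6129F1 library for the other 8. The highest library was B6 replicate 51 for 13 of them and a PWK library for 17.

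How far a follower moved per unit of Col1a1 differed widely. On the log2 scale the slope on Col1a1 was 0.996 for Col3a1, 0.970 for Col6a3 and 0.885 for Col1a2, but 0.275 for Col18a1, 0.228 for Col27a1 and 0.220 for Col4a5. Among the 30, 7 had slopes under 0.4 and 9, Col1a1 among them, had slopes of at least 0.8. Col18a1, the basement membrane collagen from which endostatin is cut, kept 95.3 CPM in B6 replicate 1, where Col1a1 stood at 8.21 CPM, and held 305 CPM in replicate 51. Col4a5, a basement membrane network chain, ranged from 6.5 to 20.5 CPM.

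**Figure D2:**
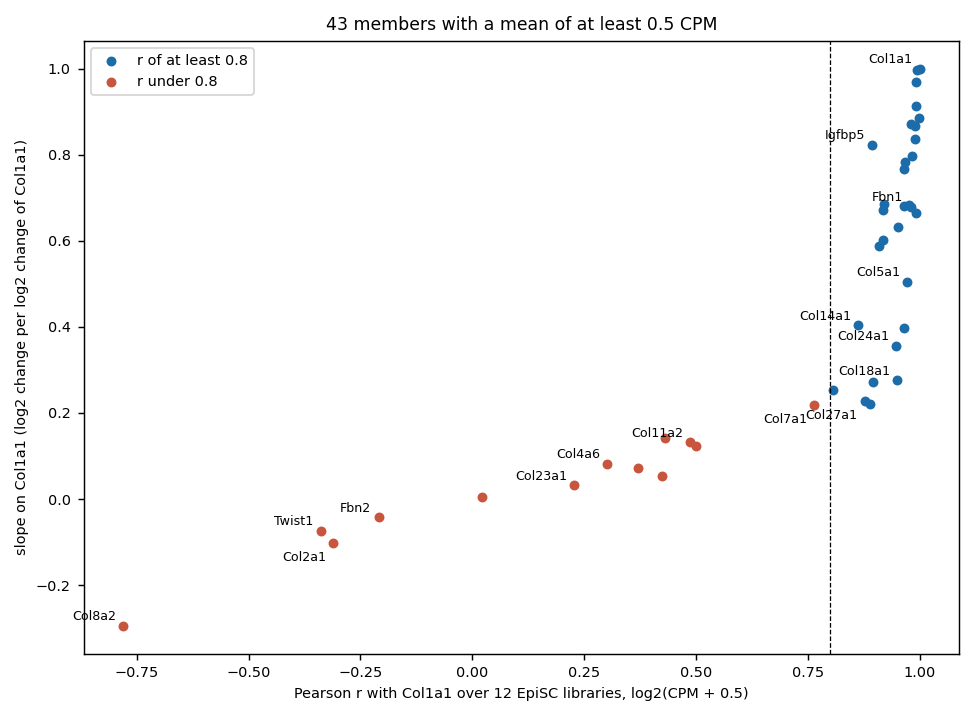
Pearson r with Col1a1 (horizontal) and slope on Col1a1 (vertical) over the 12 EpiSC libraries for the 43 members with a mean of at least 0.5 CPM, 1 point per gene, with the dashed line at r = 0.8. The 30 members on its right have slopes from 0.220 to 1, and the 13 on its left have slopes from -0.294 to 0.219.

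Members that did not follow often belonged to the same collagen type as one that did. Col8a1, a short-chain network collagen, followed with r = 0.98, while its partner Col8a2 had r = -0.78, with 0.80, 2.52, 1.30, 5.24 and 4.05 CPM in B6 EpiSC replicates 51, 44, 2, 4 and 1 and 0.40 to 0.85 CPM in PWK. Col8a2 was thus high in the B6 libraries in which Col1a1 was low. Fbn2, the fibrillin of early development, had r = -0.21 and ranged from 19.9 to 54.3 CPM, against r = 0.98 for Fbn1. Col11a2 had r = 0.49, against 0.97 for Col11a1. Col4a6 had r = 0.30, against 0.89 for Col4a5, with which it shares a head-to-head promoter region. Col2a1, the fibrillar collagen of cartilage, had r = -0.31 and Twist1, a bHLH factor of mesenchyme, r = -0.34. With each library as its deviation from its strain mean, r turned positive for Twist1 (0.51). It stayed negative for Col2a1 (-0.49), Fbn2 (-0.35) and Col8a2 (-0.73). Twist1 ranged from 6.30 CPM in PWK BioRep698 to 19.2 CPM in B6 replicate 4. Neither transmembrane collagen that was measurable in EpiSCs followed (Col23a1 r = 0.23, Col25a1 r = 0.37).

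Over all 30 followers the summed level ran from 294 to 4910 CPM in B6 EpiSCs, from 4182 to 5678 in PWK and from 424 to 541 in B6129F1. It was 2863 CPM in DBA and 153 to 466 CPM in DE. The 13 members that did not follow summed to 86.0 to 179 CPM in B6 EpiSCs, 106 to 125 in PWK and 87.3 to 94.3 in B6129F1. In DE those 13 summed to 177 to 395 CPM. The 34 fibroblast markers that are not members summed to 1524 to 8418 CPM in B6 EpiSCs and 1540 to 2138 CPM in DE, with Tcf21 at 0 in all B6 EpiSC libraries and Fmod, Fbln5, Eln and Meox2 at 0 in all DE libraries. Of the 29 of them with a mean of at least 0.5 CPM, 19 had r of at least 0.8 with Col1a1, against 7.79% of all genes. Their part in the levels of the members was not tested.

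The genes outside the set most like Col1a1 over the 12 libraries, among 9297 with a mean log2 level of at least 3, were Tnc (r = 0.991), Bgn (0.990), Ecm1 (0.989), Lama4 (0.989), Ddr2 (0.985), Aebp1 (0.985), Oaf (0.984), Pcolce (0.983), Anxa1 (0.983) and Emilin1 (0.982). Tnc encodes tenascin C, a matrix glycoprotein, Bgn the proteoglycan biglycan and Ddr2 a receptor for fibrillar collagen. Tnc ranged from 59.2 to 1859 CPM in EpiSCs and from 6.71 to 19.5 CPM in DE.

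The comparison of DE with EpiSCs in B6 asked what happens to this set on differentiation. Of 45 members tested, 30 were lower and 6 higher in DE by edgeR's quasi-likelihood test at an adjusted p under 0.05, against 30.6% lower and 31.5% higher among all 14085 genes. The median log2 change of the 45 was -2.52, and that of all genes -0.01. The filter admitted a member that is high in 1 group alone, and 9 of the 54 did not pass it. Of the 30 followers, 25 were lower, 1 was higher and 4 were not called. The 5 B6 EpiSC libraries of this test also entered the choice of followers. Of the 12 tested members that did not follow, 5 were lower and 3 higher. Of the 3 tested members with a mean under 0.5 CPM in EpiSCs 2 were higher. Those 3 passed the filter only with their DE libraries counted, so that count is not a result about such members.

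Thy1 fell most. Its counts were 2960, 1365, 884, 613 and 210 in B6 EpiSC replicates 51, 44, 2, 4 and 1 and 3, 0, 1 and 1 in DE replicates 2, 44, 4 and 51. No DE library came near the lowest EpiSC library. Over the pooled counts Thy1 was 1536-fold lower in DE (exact 95% interval from counting error 658 to 4733, adjusted p = 2.64e-05). Col15a1, a basement membrane zone collagen, was 72.6-fold lower by the same measure (24.4 to 355, adjusted p = 0.000425), from 171 counts in all EpiSC libraries and 3 in all DE libraries. Col6a5 had no count in DE and 112 in EpiSCs, which makes it at least 47.5-fold lower against 3 counts over the group.

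Fbn1 stood at 268, 114, 120, 46.2 and 18.3 CPM in B6 EpiSC replicates 51, 44, 2, 4 and 1 and at 5.06, 3.12, 2.21 and 5.85 CPM in DE replicates 2, 44, 4 and 51. Its log2 change was -4.73 ± 0.76 (SE, adjusted p = 0.000344 by edgeR), with no overlap between the groups. Col12a1 had a log2 change of -6.28 ± 1.19 and Prrx1 of -4.28 ± 0.89, both without overlap. Col4a6, which did not follow Col1a1, fell by 4.08 ± 0.89, from 3.75 ± 0.44 CPM (SD, n = 5) to 0.22 ± 0.19 (SD, n = 4). Col18a1 and Igfbp5 had log2 changes of -2.36 ± 0.44 and -2.75 ± 0.48, again without overlap.

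The groups overlapped for most followers. For Col1a1, Col1a2, Col3a1, Col5a2, Col6a1, Col6a2 and Col6a3, B6 EpiSC replicate 1 lay below the highest DE library. For Col3a1, B6 EpiSC replicate 4 (72.5 CPM) also lay below DE replicate 2 (76.6 CPM). Col1a1 fell by 3.96 ± 1.06 (SE, adjusted p = 0.00782), from 290 ± 288 CPM (SD, n = 5) to 17.6 ± 12.6 (SD, n = 4). Col6a3 fell by 5.09 ± 1.19 (adjusted p = 0.00361), and Col6a1 and Col5a2 had log2 changes of -3.13 ± 0.87 and -4.28 ± 1.11. Col1a2 fell by 2.45 ± 0.85 (adjusted p = 0.0285) and Col3a1 dropped by 2.99 ± 1.13 (adjusted p = 0.0396), and neither call held without filtering or without EpiSC replicate 51 or DE replicates 4, 44 or 51. Of the 36 calls, 9 were lost when some single library was left out: Col1a2, Col2a1, Col3a1, Col6a2, Col8a1, Dcn, Lox, Lum and S100a4. The weaker changes among members that did not follow were those of Fbn2 (-1.51 ± 0.38), Col22a1 (-1.43 ± 0.36) and Twist1 (-1.02 ± 0.27), each without overlap between the groups.

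In all, 6 collagens rose in DE. Col23a1, a transmembrane collagen that can be shed from the cell surface, stood at 126, 196, 201 and 72.5 CPM in DE replicates 2, 44, 4 and 51 and at 1.18 to 1.93 CPM in EpiSC libraries of B6. On the log2 scale it rose by 6.64 ± 0.34 (SE, adjusted p = 4.4e-07), the lowest adjusted p of the 45. The transmembrane collagens Col13a1 and Col17a1 rose by 4.69 ± 0.79 and 3.90 ± 0.55, to 7.47, 23.6, 9.99 and 5.47 CPM and to 2.98, 14.1, 4.18 and 6.38 CPM in DE replicates 2, 44, 4 and 51. Col13a1 did not exceed 1.23 CPM and Col17a1 0.87 CPM in any B6 EpiSC library. Both passed the filter only with their DE libraries counted, so their calls are not separate support for a rise. Col9a3, a fibril-associated chain, rose by 2.04 ± 0.35 and Col2a1 by 1.77 ± 0.55. Col2a1 overlapped between the groups, at 8.80 to 46.8 CPM in EpiSCs and 28.5 to 147 CPM in DE. Col14a1 was the only follower that rose, by 2.02 ± 0.58, from 0.43 to 2.22 CPM in EpiSCs to 2.02 to 6.78 CPM in DE. Its call was lost with a replicate block on the numbers shared by DE and EpiSCs. Of the transmembrane collagens only Col25a1 was not called (0.31 ± 0.55). Of 10 definitive endoderm markers 8 were also higher in DE, their sum going from 135 to 728 CPM in B6 EpiSCs to 7346 to 14234 CPM in DE. The list includes Cxcr4, and DE cells were selected for surface CXCR4. Since the 6 collagens were picked as higher in DE, the shared direction is no support for a link. The part of these markers in the rise of the 6 collagens was not tested. Of the other marker lists, 5 of 28 tested fibroblast markers were higher and 12 lower, 3 of 10 epiblast stem cell markers were higher and 6 lower, and 2 of 7 mesoderm markers were higher and 4 lower. Neural crest markers were lower for 3 of 4, parietal and visceral endoderm markers higher for 2 of 4, and the 1 blood or endothelial marker tested was not called. Among all genes 30.6% were lower and 31.5% higher.

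**Figure D3:**
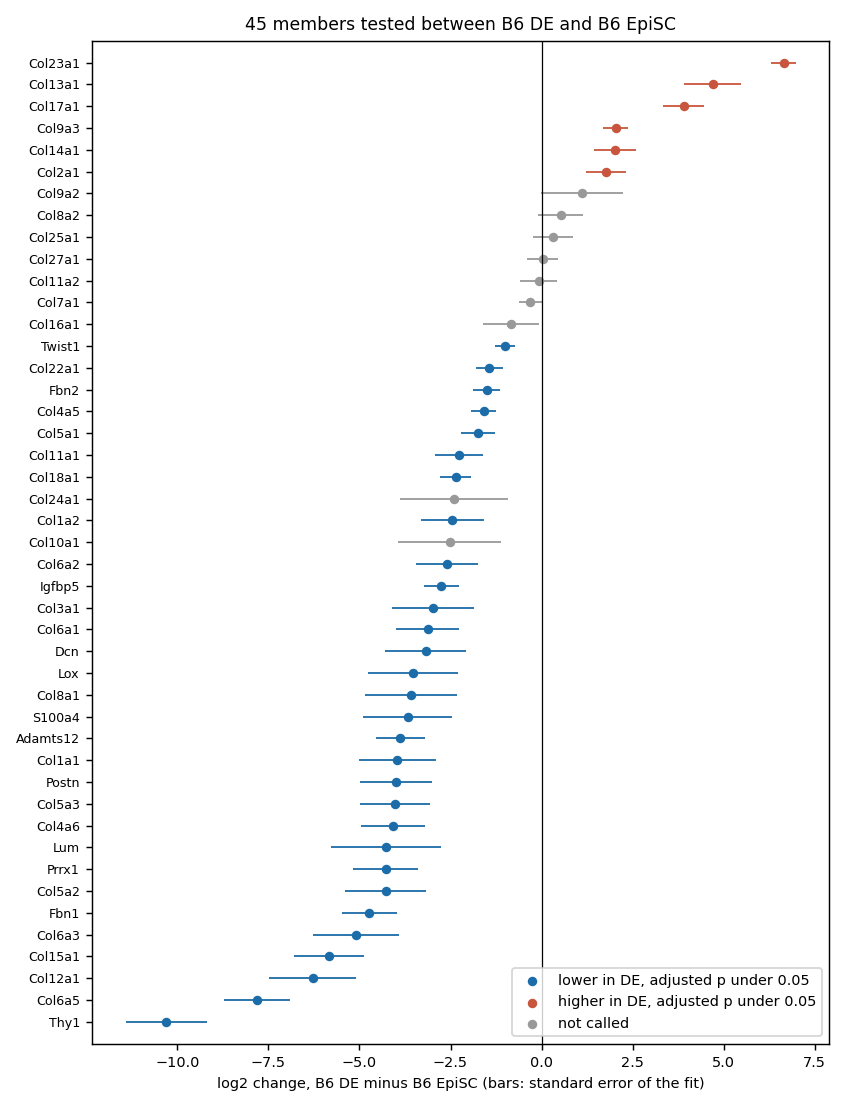
Log2 change between B6 DE and B6 EpiSCs for the 45 members tested, sorted, with the standard error of the fit as bars and colours for the calls. 30 members lie lower, 6 higher and 9 were not called, from Thy1 at -10.30, a fitted value that rests on 5 DE counts, to Col23a1 at 6.64.

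Within a library, the ratio to Col1a1 set DE apart from EpiSCs for a few followers and not for most. The level of each follower was divided by that of Col1a1 in the same library, which compares libraries and not genes. Col1a2 per Col1a1 was 0.80 to 1.62 in the 12 EpiSC libraries and 2.22, 5.30, 3.65 and 2.09 in DE replicates 2, 44, 4 and 51, so that all DE libraries lay above all EpiSC libraries. Col16a1 per Col1a1 was 0.043 to 0.20 in EpiSCs and 0.43 to 0.58 in DE, and Col14a1 was 0.0026 to 0.052 and 0.081 to 0.64. Thy1 went the other way, with 0.098 to 0.995 in EpiSCs and at most 0.0041 in DE, and so did Col6a3, with 0.44 to 0.84 and 0.12 to 0.40. For the other 24 of 29 followers the DE libraries overlapped the EpiSC libraries. These ratios were not tested. The share of all genes set apart in this way is not given, so the counts are not a result about the followers.

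**Figure D4:**
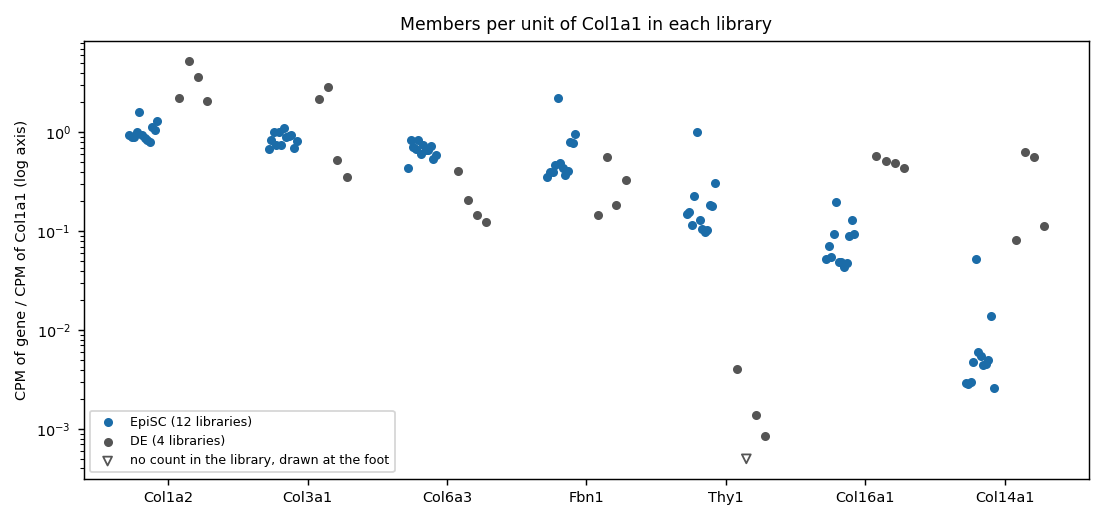
Level of 7 members divided by that of Col1a1 in the same library, on a log axis, with 1 point per library for 12 EpiSC and 4 DE libraries. DE libraries lie above all EpiSC libraries for Col1a2, Col16a1 and Col14a1, below them for Col6a3 and Thy1, and overlap them for Col3a1 and Fbn1.

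B6 EpiSC replicate 1 and the DE libraries were low in Col1a1 alike but differed in other members. At 8.21 CPM of Col1a1, replicate 1 held 8.17 CPM of Thy1, against at most 0.14 CPM in DE. It held 18.3 CPM of Fbn1, against 2.21 to 5.85 CPM, and 95.3 CPM of Col18a1, against 16.4 to 64.2 CPM. In Col1a2 it was below every DE library, with 13.3 CPM against 29.2 to 77.7 CPM. DE replicate 2 held more of several followers than the other DE libraries, with 76.6 CPM of Col3a1 against 6.34 to 15.8, 24.0 CPM of Col6a1 against 4.32 to 5.67 and 9.59 CPM of Dcn against 0.51 to 1.21. Without DE replicate 2, 31 members were lower and 6 higher of 46 tested, a fit whose shares of all genes are not given.

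Between strains the widest contrast was that of PWK with B6129F1 EpiSCs. Of 48 members tested, 31 were higher and 2 lower in PWK by edgeR, against 20.7% higher and 19.4% lower among all 14822 genes. The comparisons among strains share libraries with each other and with the choice of followers, so the counts of followers are descriptions. All but Col27a1 of the 30 followers were among the genes higher in PWK. In each of the 30 the PWK libraries lay above the B6129F1 libraries. The share of all genes separated in this way is not given, so that count is not a result about the followers. Igfbp5 had the largest change, 5.19 ± 0.65 (SE, adjusted p = 0.000287), with 222, 425 and 415 CPM in PWK and 9.08, 9.53 and 10.1 CPM in B6129F1. S100a4 was higher by 5.09 ± 0.99, Lum and Dcn by 4.42 each (± 1.10 and ± 0.97), Col3a1 by 4.39 ± 1.12 and Col1a1 by 4.23 ± 1.15 (adjusted p = 0.0153). Col7a1, the anchoring fibril collagen, and Col4a6 were the 2 members higher in PWK that did not follow, by 1.34 ± 0.35 and 0.85 ± 0.19, and the call of Col7a1 was lost without B6129F1 replicate 4 (adjusted p = 0.0536). Col8a2 and Twist1 were lower in PWK, with log2 changes of -2.01 ± 0.64 and -0.94 ± 0.22. The count of higher members fell to 19 without the unnumbered B6129F1 library, a fit whose share of all genes is not given. The calls of Col1a1 and Col1a2 were then lost. Of the 33 calls, 18 held under every alternative and 15 were lost without some single library: Col10a1, Col12a1, Col16a1, Col18a1, Col1a1, Col1a2, Col24a1, Col4a5, Col5a2, Col5a3, Col7a1, Col8a1, Col8a2, Lox and Postn. Those of Col1a1 and Col1a2 were also lost without B6129F1 replicate 9, and the call of Col8a2 without B6129F1 replicate 9, the unnumbered B6129F1 library, PWK BioRep695 or the unnumbered PWK library. Fibroblast markers outside the set moved with the members, 26 of 30 being higher and 2 lower in PWK. Of 8 parietal and visceral endoderm markers 3 were tested, and all 3 were higher in PWK (sums of 1146 to 1188 CPM against 317 to 343). Sparc is in both that list and the fibroblast list, so the 2 lists are not separate observations. Also higher were 3 of 4 neural crest markers (83.3 to 89.7 against 35.0 to 48.3) and 3 of 9 mesoderm markers (195 to 232 against 161 to 279). The part of these lists was not tested.

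Fewer members differed from B6 EpiSCs by the test. Against B6, 3 of 48 members were higher in PWK and 2 lower, where 12% of all genes were higher and 14.5% lower. The 3 were Igfbp5 (2.03 ± 0.47, adjusted p = 0.0105), Col14a1 (1.90 ± 0.55) and Col4a6 (1.33 ± 0.17, adjusted p = 0.000243). Col4a6 stood at 10.2, 8.95 and 9.62 CPM in PWK and at 3.18 to 4.38 CPM in B6, with small spread in both. The 2 lower members were Twist1 (-1.03 ± 0.21, adjusted p = 0.00418), with 6.30, 6.56 and 9.46 CPM in PWK and 10.5 to 19.2 CPM in B6, and Col8a2 (-2.16 ± 0.61, adjusted p = 0.024), whose groups overlapped. For Col1a1 the change was 1.27 ± 0.88 (adjusted p = 0.311). Without B6 replicate 51 the count of members higher in PWK became 18. The share of all genes in that fit is not given, so this count is not a result about the members. The calls of Col14a1 and Col8a2 were lost without any 1 of the 3 PWK libraries. Reads of PWK, a strain far from the mouse reference in sequence, were assigned to genes of the mm10 build, and the part of mapping in these differences cannot be told apart from that of strain.

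Against B6, no member was higher in B6129F1 and 2 of 48 were lower, Igfbp5 (-3.17 ± 0.57, adjusted p = 0.0306) and Adamts12 (-2.60 ± 0.55, adjusted p = 0.0396), where 1.34% of all genes were higher and 1.5% lower. With no adjustment, 28 members had a p under 0.05, and DESeq2's Wald test called none higher and 23 lower. The shares of all genes by these 2 measures, or with a library left out, are not given. The 1.34% and 1.5% belong to edgeR's adjusted test of all the libraries alone. The edgeR count of lower members was 23 without B6 replicate 1, 1 without B6 replicate 4, and 0 without B6 replicate 44 or without any 1 of the PWK or B6129F1 libraries, the PWK libraries entering through the shared estimate of spread. The single DBA library lay within the range of the 5 B6 libraries for 34 of 40 members with a mean of at least 1 CPM. That range was wide, from 8.21 to 754 CPM for Col1a1, and the share of all genes within it is not given. A ratio past 2-fold, a log2 ratio over 1, was seen for Col26a1 alone, at 3.13 CPM against 0.033 to 0.51 CPM in B6. Among all genes 2.86% were higher and 3.58% lower by that measure, and with 1 library there is no test.

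Genes that process collagen did not move as one with the chains. Of 31 such genes fixed as a list, 30 were tested in DE, with 11 lower and 10 higher and a median log2 change of -0.39. Both counts were near the shares of all genes, 30.6% lower and 31.5% higher. Enzymes that act on the chains inside the cell were among those that rose, such as P4hb, the beta subunit of prolyl 4-hydroxylase, by 1.59 ± 0.12 to 1452 to 1926 CPM, and P3h2, a prolyl 3-hydroxylase, by 1.86 ± 0.29. Among those that fell were Loxl1 and Loxl3, which crosslink the secreted protein, with log2 changes of -3.28 ± 1.15 and -3.05 ± 0.78, P3h3 (-2.59 ± 0.40) and the collagen chaperone Serpinh1 (-1.49 ± 0.33). In EpiSCs 13 of 30 had r of at least 0.8 with Col1a1, against 7.79% of all genes, with Loxl1 at 0.994. Of 16 genes for collagen receptors, collagenases and their inhibitors, 14 were tested in DE, with 9 lower and 2 higher and a median of -2.25. The receptors Ddr2 and Ddr1 had log2 changes of -5.0 ± 1.03 and -2.50 ± 0.20, and the integrin chain Itga1 of -4.04 ± 0.44. The membrane protease Mmp14 rose by 1.11 ± 0.34. Between PWK and B6129F1, 19 of 31 processing genes and 10 of 15 receptor and collagenase genes were higher in PWK, against 20.7% of all genes.

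Accessibility near the members was examined in the peaks within 2 kb of a gene start, or of either gene end where no start was listed (14 members). In B6 DE and EpiSCs 41 members had such a peak, with 74 peaks in all, and 62 were tested. 13 were higher and 13 lower in DE by edgeR, against 32.6% higher and 25% lower among all 113870 peaks, so the members' shares did not exceed the background. Of 37 tested peaks of followers 10 were lower and 4 higher, and of 26 tested peaks of other members 3 were lower and 9 higher, 1 peak between Col4a5 and Col4a6 being counted in both. Without EpiSC replicate 51, 23 were lower and 8 higher, and without DE replicate 2, 20 were lower. The shares of all peaks in these 2 fits are not given. Distances run to the centre of a peak. Levels are ATAC CPM, taken over the counts in peaks, and positions are those of the deposited peak table in mm10.

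Around Col23a1 the peak at chr11:51288434-51288638, centred at -1384 bases from the start site, held 0.31, 1.12, 0.49 and 0.70 CPM in B6 EpiSC replicates 1, 4, 44 and 51. In DE replicates 2, 4, 44 and 51 it held 9.28, 14, 12.3 and 4.37 CPM. All DE libraries lay above all EpiSC libraries, and the log2 change was 3.87 ± 0.45 (SE, adjusted p = 4.06e-07). The peak at -1883 bases rose by 3.12 ± 0.53 and that over the start by 0.93 ± 0.27, while the peak at -228 bases did not pass the test (-0.49 ± 0.22, adjusted p = 0.067). At Col13a1 the peak 914 bases after the start rose by 1.92 ± 0.35, from 1.54 to 2.64 CPM to 5.13 to 9.31 CPM.

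Peaks of followers that fell included that of Col6a1 at its start (-1.26 ± 0.38, adjusted p = 0.00695), with 6.00, 7.41, 4.39 and 4.04 CPM in EpiSCs and 2.57, 1.37, 3.08 and 1.75 CPM in DE. The peak near an end of Col1a1, at chr11:94936934-94937229, had a log2 change of -0.88 ± 0.25, and that of Thy1 one of -0.87 ± 0.22. A peak inside an end of Dcn, at chr10:97516570-97516729, held 6.93, 4.88, 7.81 and 3.35 CPM in EpiSCs and 0.79, 0.31, 0 and 0 CPM in DE replicates 2, 4, 44 and 51. It had a log2 change of -4.28 ± 0.64 (adjusted p = 8.66e-06). A second Dcn peak, at chr10:97479539-97479828, was not called (0.36 ± 0.26, adjusted p = 0.232 by edgeR). The 4 follower peaks that rose were those of Adamts12 (480 bases after the start, 1.26 ± 0.25), Col18a1 (1545, 1.05 ± 0.33), Col8a1 (82, 0.92 ± 0.30) and Prrx1 (1563, 1.08 ± 0.39). Prrx1 and Col18a1 had lower RNA in DE, and a Col18a1 peak over its start fell (-0.84 ± 0.26). Both peaks of Col1a2 did not pass the test (-0.38 ± 0.29 and -0.64 ± 0.45). The peak of Twist1 at -1575 bases fell by 1.23 ± 0.27, and Col7a1, whose RNA was not called, had a peak at -365 bases that rose by 0.64 ± 0.18. 

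Between libraries of B6 EpiSCs the order of accessibility and that of RNA differed at some followers and not at others, as 3 peaks chosen after their values were seen show. Replicates 1, 4, 44 and 51 held 14.3, 14.9, 17.6 and 10.0 CPM at the Col1a1 peak, whereas Col1a1 RNA was 8.21, 98.6, 289 and 754 CPM in libraries of the same numbers. At the Postn peak at -657 bases they held 4.62, 3.76, 6.10 and 1.12 CPM, with Postn RNA at 9.77, 32.1, 67.5 and 323 CPM. Replicate 51 had the highest RNA and the lowest accessibility of the 4 at both genes. The Col1a2 peak at -276 bases had the order of Col1a2 RNA instead, with 6.47, 6.60, 7.08 and 10.3 CPM beside 13.3, 98.95, 259 and 716 CPM of RNA. The labels do not say that RNA and ATAC libraries of a number come from the same cells. Between PWK and B6 EpiSCs, 1 of 71 tested member peaks was called, a Col14a1 peak that fell by 2.90 ± 0.65 (adjusted p = 0.0169), and none rose, against 1.42% higher and 3.68% lower among 137667 peaks. With no adjustment, 9 had a p under 0.05, and DESeq2 called 0 higher and 1 lower, measures for which the shares of all peaks are not given. The call was lost without B6 replicate 4 and without either PWK library.

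**Figure D5:**
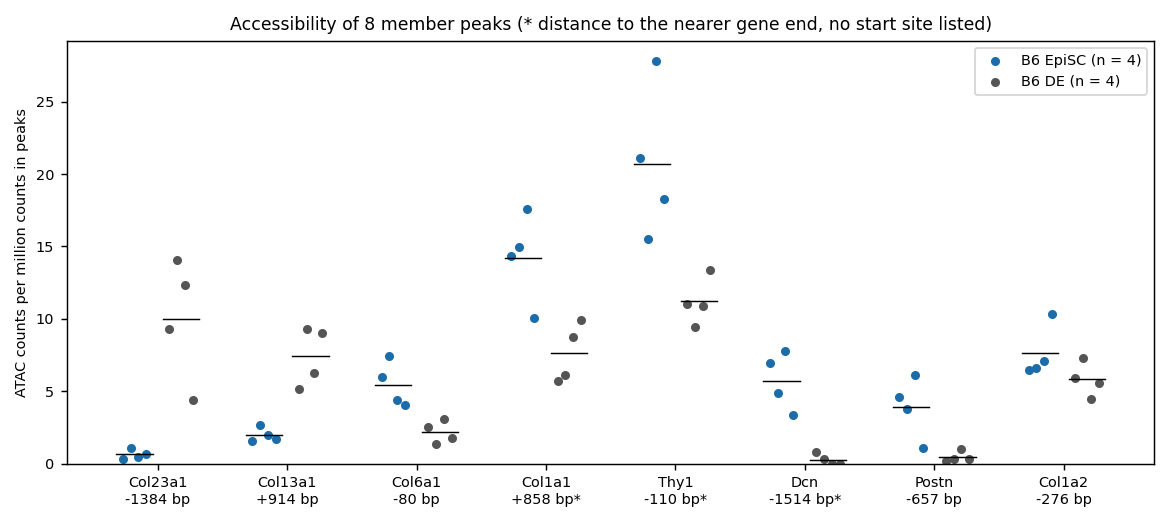
ATAC CPM, taken over the counts in peaks, for 8 member peaks in 4 B6 EpiSC and 4 B6 DE libraries, with 1 point per library and a line at the mean. The Col23a1 and Col13a1 peaks are higher in every DE library, the Col6a1, Col1a1, Thy1, Dcn and Postn peaks are lower in every DE library (Postn was not tested), and the Col1a2 peak overlaps. The Col23a1, Col13a1 and Dcn peaks were picked for the largest change, and further peaks of these genes are not drawn.

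The bases just before the start are shown for 5 members on which these results turn: the close followers Col1a2 and Col3a1, Col6a1, whose start peak fell in DE, and Col23a1 and Col17a1, which rose. Each run is the 150 bases before the RefSeq start in GRCm38.p6, read 5′ to 3′ along the gene. Capitals mark matches on either strand to the CCAAT box (written CCAAT), to a TATA sequence (written TATAA) and to the GC box (written GGGCGG). The run of Col6a1 lies inside the peak that fell.
Col1a2 (chr6:4505468-4505617, plus strand): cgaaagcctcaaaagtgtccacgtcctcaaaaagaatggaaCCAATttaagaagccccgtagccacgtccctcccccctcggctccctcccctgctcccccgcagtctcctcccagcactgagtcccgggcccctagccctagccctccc
Col3a1 (chr1:45311388-45311537, plus strand): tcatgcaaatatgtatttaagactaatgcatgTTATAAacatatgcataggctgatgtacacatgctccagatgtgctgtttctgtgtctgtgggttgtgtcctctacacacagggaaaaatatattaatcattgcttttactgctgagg
Col6a1 (chr10:76726045-76726194, minus strand): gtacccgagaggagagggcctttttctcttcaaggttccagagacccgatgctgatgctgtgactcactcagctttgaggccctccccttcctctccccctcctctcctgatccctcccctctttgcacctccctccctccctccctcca
Col23a1 (chr11:51289770-51289919, plus strand): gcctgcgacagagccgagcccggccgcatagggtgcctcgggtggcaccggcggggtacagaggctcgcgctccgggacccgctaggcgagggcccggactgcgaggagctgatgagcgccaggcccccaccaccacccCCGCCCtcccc
Col17a1 (chr19:47692043-47692192, minus strand): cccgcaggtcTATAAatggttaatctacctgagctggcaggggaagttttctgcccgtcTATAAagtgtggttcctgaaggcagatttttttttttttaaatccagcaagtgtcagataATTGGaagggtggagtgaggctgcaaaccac

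Col1a2 holds a CCAAT match that begins at -109, and Col3a1 a TATAA match that begins at -117 and overlaps its own reverse complement. Col6a1 holds none of the 3 motifs in these bases, and Col23a1 a GC box on the opposite strand. Col17a1 holds 2 TATAA matches and a CCAAT match on the opposite strand. Over the whole 300-base windows of RefSeq, from 250 bases before to 50 after the start, CCAAT was found in 7 of 25 windows of followers and in 37.4% of all 32851 windows. TATAA was found in 4 of the 25 and 24.9% of all, and GGGCGG in 12 of the 25 and 35.7% of all. Of the 19 windows of the other members, 6 held CCAAT, 6 TATAA and 11 GGGCGG. These are matches of letters and not sites.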

How the data were processed

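RNA and ATAC-seq libraries were analysed from whole-number counts per gene and per peak, deposited by the authors as raw tables. Per the submitters' processing notes, fastp, Salmon, featureCounts, Bowtie2, MACS2, DESeq2 and the mm10 build were used, and versions are not given in the sources used here. Peaks were counted over a shared list per table, and whether replicates were pooled for calling is not given in the sources used here. Of 30 samples 27 were used, the 3 PWK DE samples were not analysed here, and 17 columns that match no sample here were not used.

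Samples were grouped by the labels. Counts were tested with edgeR 4.0.16 (R 4.3.3): TMM scaling, filterByExpr, the robust quasi-likelihood test over all genes or peaks of a table, and Benjamini-Hochberg adjustment at 0.05. B6 DE and B6 EpiSCs were fitted on their own libraries and the strains together. CPM shown for RNA was scaled by TMM over all 16 libraries. Members with a mean of at least 1 CPM in any RNA group could be named. DESeq2 1.42.0, other scalings and filters, replicate blocks and leave-one-out fits were alternatives. Code was tested on simulated data. The members, the marker and pathway lists and the tests were chosen with earlier results of these data known. RNA totals were 22829536 to 66563933 counts and ATAC totals 3751526 to 9571127. Intervals cover counting error only. Promoter bases and start sites are those of RefSeq, GRCm38.p6.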

Additional observations from a re-analysis of the deposited data

Results flagged for a closer look

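In groups of 4 or 5 libraries, 14 gene and group pairs of 89 examined held a library far from the others by Dixon's criterion. Chance alone meets it in about 1 of 20 groups of independent, normally distributed values. The CPM values were not on a log scale and followers move together, so 14 of 89 cannot be set against that rate. In B6 DE the library was replicate 2 for 7 followers of Col1a1. Its Col3a1 level was 76.61 CPM (others 6.34 to 15.8), its Col6a1 level 24.01 (4.32 to 5.67), its Col6a3 level 14.04 (1.13 to 2.21) and its Dcn level 9.594 (0.507 to 1.21). At low levels, Col24a1 was 0.6617 CPM (0 to 0.0781), Col10a1 0.4254 (0 to 0.0167) and Thy1 0.1418 (0 to 0.0167), the last from 3 counts.

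In B6 EpiSCs replicate 51 stood above the other 4 libraries for 6 followers. Its Postn level was 322.9 CPM (others 9.77 to 84.6), its Col5a2 level 281.9 (4.48 to 84.2), its Lox level 76.74 (1.67 to 12.2) and its Col12a1 level 61.82 (3.70 to 13.7). S100a4 was 12.55 CPM (0.545 to 3.52) and Col14a1 2.219 (0.428 to 0.903). Replicate 4 stood apart for Col17a1, at 0.8674 CPM (0.350 to 0.392). The cause of these differences was not tested.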

How the results depend on the processing

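No call of a named member between groups turned its direction. With each library as its deviation from its strain mean, r with Col1a1 changed sign for some members that did not follow. It went from -0.34 to 0.51 for Twist1, from 0.23 to -0.12 for Col23a1, from 0.37 to -0.06 for Col25a1 and from 0.022 to -0.53 for Col22a1. DESeq2 called 6 members higher in PWK than in B6 and 23 lower in B6129F1, and its shares of all genes are not given. With only the groups compared in a fit, 1 member was lower in PWK than in B6 and 0 in B6129F1 than in B6. For ATAC peaks between DE and EpiSCs, 6 were lower and 6 higher within 500 bp, 33 and 32 within 10 kb, and 6 and 7 with at least 10 counts in every library. 20 were lower with total library size and 20 without a filter. Between PWK and B6, 0 peaks were lower within 500 bp, 4 within 10 kb and 0 with at least 10 counts. The shares of all genes or peaks in these settings, and the numbers of peaks tested, are not given. These counts are thus no result about the members. The causes were not tested.

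Leaving out single libraries gave 23 to 31 members lower and 5 to 7 higher in DE. It gave 2 to 18 higher and 1 to 2 lower in PWK than B6, and 0 to 23 lower and 0 higher in B6129F1 than B6. Between PWK and B6129F1 it gave 19 to 31 higher and 1 to 2 lower, and 29 to 31 members followed Col1a1. Peaks were lower in DE for 14 to 23 and higher for 8 to 12, and 0 to 1 were lower and 0 higher in PWK. The shares of all genes and peaks called in these fits are not given. Across all alternatives 24, at an r of at least 0.9, to 31 members followed. With Thy1 or Col3a1 in place of Col1a1, chosen after seeing the data, 30 and 29 did, 29 of them the same genes in each case.

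With a replicate block on the numbers shared by DE and EpiSCs, 30 members were lower and 5 higher, the call of Col14a1 being lost, and 7 peaks were lower and 6 higher. Without the block, the same libraries gave 7 peaks higher. For these fits, too, the shares of all genes and peaks are not given. Same-numbered RNA libraries correlated at 0.186, 0.150, 0.139 and 0.063 in their deviations from the group means, and each of those EpiSC libraries correlated best with its own number, a hint from the data and not the design. For ATAC the values were 0.045, -0.011 and 0.026.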
